A study of Mus musculus with 6 samples.

Results

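The genes described here were 6 genes of the neurotrophin system in mouse cerebellar granule neurons (CGNs), namely the ligands Bdnf and Ntf3 and the receptors Ntrk2, Ntrk3, Ngfr and Sort1. They were chosen by name, as ligands or receptors of this family, out of 55341 genes in each count table, and 6 of 6 passed the filter on low counts that left 16343 genes for testing. Poly(A) RNA-seq was run on CGN cultures treated with DMSO, the vehicle (n = 3), or with GSK-126 (n = 3), a small molecule that inhibits EZH2. EZH2 is the methyltransferase that places H3K27me3, a histone mark of repressed genes. The comparison asks which transcripts change when this enzyme is inhibited in neurons that are maturing in culture.

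Each library was labelled with its agent and replicate number, without dose or day. According to the study's methods, granule neuron precursors were isolated on a Percoll gradient from outbred CD1-IGS pups of both sexes, cultured with AraC to stop the division of other cells, treated once with the inhibitor and harvested a few days later. The methods describe addition on either of 2 days in culture with 1 day of harvest. The labels do not say which of these the libraries belong to, and a day code that the deposited tables carry in their names reads as the earlier one. A replicate was a culture made from the pooled cerebella of litters, so that same-numbered libraries could share a preparation, and the spread between replicates does not measure the spread between single animals. The 6 libraries held from 8058760 to 12047837 counts over genes, GSK-126 replicate 1 being the deepest.

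The labelled cell type was checked against its markers. All 10 granule neuron markers were expressed. Their summed level was 3650 to 5180 CPM (counts per 1e+06 counts of the TMM-scaled library) with DMSO and 2650 to 3860 CPM with GSK-126. Of the 10, 5 were called lower (Cbln3, Gabra6, Neurod1, Rbfox3 and Slc17a7). Among all genes tested, 1.42% were called lower and 2.23% higher. The 10 markers did not move alike. Log2 fold changes, GSK-126 over DMSO, ran from -2.16 for Slc17a7 to -0.23 for Cntn2, while Pax6 was at 0.04. Tubb3 was at 0.36 and higher in 3 of 3 pairs, without a call. Markers of other cells were present in every library. The summed level of 10 astrocyte markers was 2420 to 7310 CPM with DMSO and 2530 to 7590 CPM with GSK-126 (1 called higher, Gdf10). Of the astrocyte markers not called, Slc1a3 (-0.23) and Aqp4 (-0.21) were lower in 3 of 3 pairs. S100b (0.58) and Sox9 (0.11) were higher in 3 of 3 pairs. The summed level of 10 fibroblast and meningeal markers was 6990 to 9020 CPM and 9010 to 10100 CPM (Col1a1 called higher, Slc6a13 lower). Markers of the oligodendrocyte lineage summed to 517 to 877 CPM and 579 to 1020 CPM (Cspg4 called higher). Those not called ran from -0.30 for Cldn11, lower in 3 of 3 pairs, to 0.31 for Mag, higher in 3 of 3. Pdgfra (-0.21, not called) was in both this list and the fibroblast list. Markers of cerebellar GABAergic neurons summed to 205 to 273 CPM and 181 to 206 CPM (Slc32a1 called lower). Those tested and not called ran from -0.38 for Pax2 to 0.35 for Calb1 and Pvalb. In a bulk library, a lower level can come from fewer cells of a type or from less RNA per cell, and these cannot be told apart.

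Neurotrophins are secreted growth factors that are made as longer precursors and cut by proteases inside or outside the cell. Mature BDNF acts mainly through the receptor tyrosine kinase TrkB (encoded by Ntrk2), and NT-3 (Ntf3) mainly through TrkC (Ntrk3). The p75 receptor (Ngfr) binds every neurotrophin and, together with sortilin (Sort1), binds their precursors. In the developing cerebellum, BDNF and NT-3 act on the survival, migration and differentiation of granule neurons. Ntrk2 and Ntrk3 also give rise to truncated receptors that lack the kinase domain, and the truncated TrkB is abundant in astrocytes. The counts were made per gene and do not separate these forms.

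Bdnf is transcribed from several promoters, each with its own first exon spliced to a shared coding exon, and some of them respond to neuronal activity through the transcription factor CREB. RefSeq sequence (GRCm38.p6) was at hand for 7 promoter windows of Bdnf, 2 of Ntf3, 1 of Ntrk2 and 1 of Ngfr, each of 300 bases around a start site. The core of the CREB motif (TGACGT on either strand) was found in 1 of 7 Bdnf windows and in none of the other 4, against 7.51% of all 32851 windows. The full motif (TGACGTCA, which contains the core) was in none of these 11 windows and in 1.79% of all. The E-box CACGTG, which is its own reverse complement, was found in 1 of 2 Ntf3 windows, against 7.15% of all. The upstream part of the 2 windows with a match is shown because these belong to the pair of ligands, on the strand of the gene and with the match in capitals. The Bdnf stretch lies on the plus strand at chr2:109692186-109692435, and the Ntf3 stretch on the minus strand at chr6:126166745-126166994.
Bdnf: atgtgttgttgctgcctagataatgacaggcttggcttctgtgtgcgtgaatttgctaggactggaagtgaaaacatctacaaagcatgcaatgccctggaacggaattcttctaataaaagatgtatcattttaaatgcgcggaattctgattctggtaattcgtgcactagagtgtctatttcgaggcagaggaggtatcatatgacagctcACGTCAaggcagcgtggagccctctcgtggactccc
Ntf3: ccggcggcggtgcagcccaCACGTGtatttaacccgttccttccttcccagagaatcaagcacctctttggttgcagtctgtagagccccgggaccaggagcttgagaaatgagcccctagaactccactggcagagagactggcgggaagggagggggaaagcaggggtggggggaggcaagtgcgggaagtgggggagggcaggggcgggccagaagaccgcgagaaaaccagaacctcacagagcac
A match is only a run of letters. Counts per gene do not show which Bdnf promoter was in use, and no binding was measured in these libraries.

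None of the 6 genes passed an adjusted p-value of 0.05 after GSK-126. Bdnf had the largest difference, with a level about 2.39-fold higher (95% interval 1.42 to 4.01) in the model that pairs libraries by replicate number, and it missed the threshold with an adjusted p = 0.0726 (edgeR quasi-likelihood test). Estimates for the other five lay between -0.21 and 0.09 on the log2 scale. The median over the 6 genes was -0.01, beside 0.00 over all genes tested. In the same model 365 of 16343 genes were called higher (2.23%) and 232 lower (1.42%), or 597 in either direction (3.65%), so that 0 of 6 calls was close to the background. At an unadjusted p under 0.05 there were 1 of the 6 (Bdnf) and 2735 of all genes. DESeq2 with the same terms also called 0 of the 6, although it set no adjusted p for Bdnf and Ngfr.

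Without the replicate number as a block, edgeR called 0 of 16343 genes (0%), and 981 genes, 0 of the 6 among them, had an unadjusted p under 0.05. DESeq2 without the block called 59. Estimates for the 6 genes moved little between the fits with and without the block, but their standard errors grew. In 4 of the 6 genes all 3 pairs had the same sign (Bdnf and Sort1 higher, Ntf3 and Ntrk2 lower), as did 39% of all genes tested, although the first Ntf3 pair was equal to the precision printed here (a log2 ratio of 0.00). The CPM of the DMSO and GSK-126 libraries overlapped in all 6 genes, whereas 10.9% of all genes had groups that did not overlap.

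**Figure D1:**
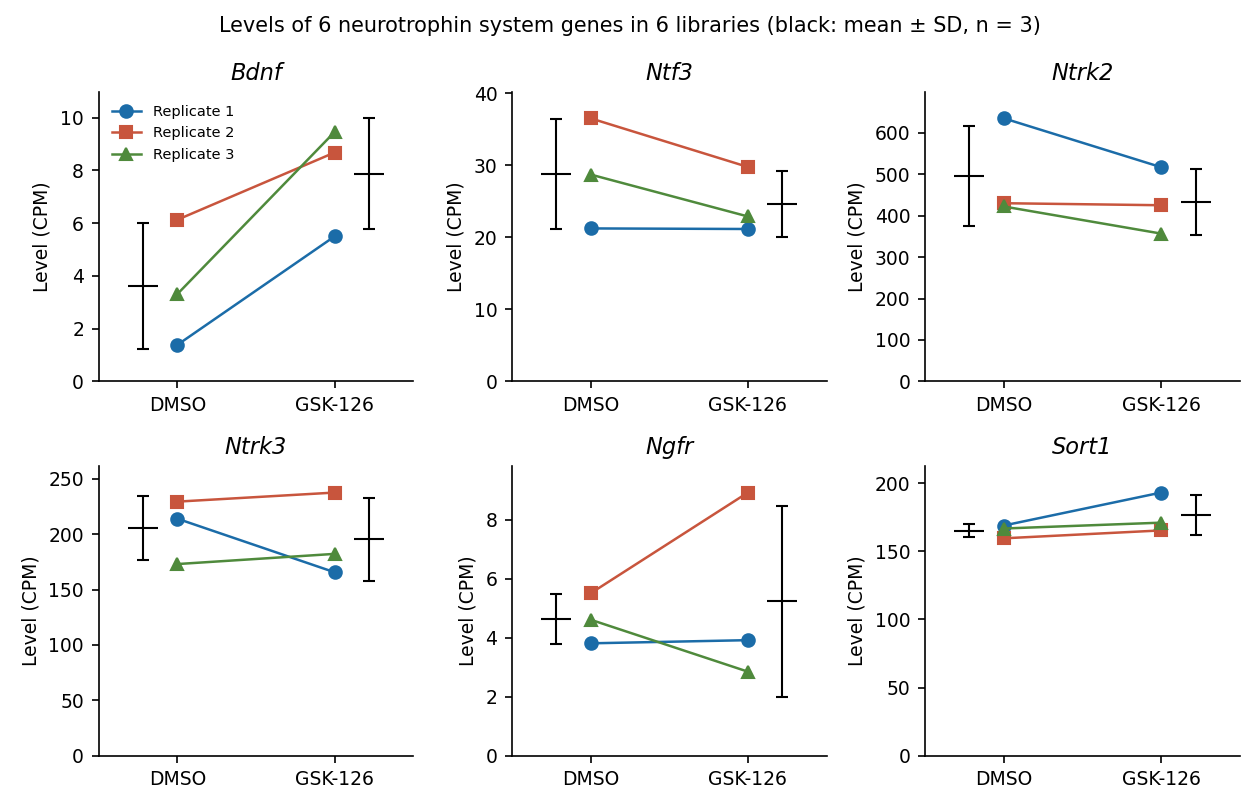
Level of each gene in CPM (vertical axes from 0) in the DMSO and GSK-126 libraries, with lines joining libraries of the same replicate number and black bars giving the mean ± SD (n = 3). Bdnf was higher with GSK-126 in 3 of 3 pairs, from 1.38 to 5.50 CPM in replicate 1, while the single pairs of Ntrk3 and of Ngfr moved in both directions.

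Bdnf, the ligand of TrkB, lies at chr2:109674700-109727007 on the plus strand (GRCm38) and has 11 annotated transcripts. It was counted 12, 49 and 28 times in DMSO replicates 1, 2 and 3 and 66, 72 and 83 times in the GSK-126 replicates. In CPM this was 1.38, 6.13 and 3.31 with DMSO (3.61 ± 2.39, SD, n = 3) and 5.50, 8.68 and 9.45 with GSK-126 (7.88 ± 2.10, SD, n = 3). The groups overlapped, since DMSO replicate 2 was above GSK-126 replicate 1. The DMSO libraries themselves spread over 4.43-fold, the lowest being replicate 1 with 12 counts.

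Within pairs, the log2 ratio of GSK-126 to DMSO for Bdnf was 1.83, 0.49 and 1.45. The model with the block gave a log2 fold change of 1.26 (SE 0.340, 95% interval 0.51 to 2.00). The edgeR quasi-likelihood p, fitted across all genes, was 0.00342 before adjustment and 0.0726 after it, at rank 770 of all genes tested. Without the block it was 1.12 (SE 0.498, interval -0.01 to 2.26), with an adjusted p = 0.825. The call depended on the filter: with no filter on low counts, the fold change was the same and the adjusted p was 0.00159. Leaving out replicate 1, 2 or 3 gave 0.98, 1.73 and 1.14, with adjusted p-values of 0.143, 0.0669 and 0.225.

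Some marker levels were, like Bdnf, higher in 3 of 3 pairs, where 39% of all genes tested had the same direction in all 3 pairs. The summed level of 10 endothelial and mural markers was 553 to 825 CPM with DMSO and 877 to 1110 CPM with GSK-126. Of the 8 tested, 3 were called higher (Acta2, Flt1 and Pdgfrb), beside 2.23% of all genes tested. Most of the summed level was Acta2, with means of 399.9 and 618.3 CPM. Among those not called, Rgs5 was higher in 3 of 3 pairs and Pecam1 and Vtn in 2 of 3. Kdr had a log2 fold change of -0.01, and Cdh5 was lower in 3 of 3 pairs (-0.30). The summed level of the fibroblast and meningeal markers given above was also higher in 3 of 3 pairs. So was that of 10 microglia markers (290 to 502 CPM and 353 to 740 CPM, C1qb and Ctss called higher, Trem2 at 0 in every library). Microglia markers tested and not called had log2 fold changes from -0.08 for Aif1 to 0.66 for C1qa. Of 7 granule neuron progenitor markers, 5 were tested and Ccnd2 was called higher, and the summed level was 541 to 669 CPM with DMSO and 722 to 906 CPM with GSK-126, also higher in 3 of 3 pairs. Most of that rise was Ccnd2 itself, from a mean of 228.9 to 431.4 CPM. Mki67 and Barhl1 were higher in 3 of 3 pairs without a call. Top2a had a log2 fold change of 0.00, and Ptch1 was lower in 3 of 3 pairs (-0.30). The summed levels of the granule neuron markers and of the GABAergic neuron markers were lower in 3 of 3 pairs. Those of the astrocyte and of the oligodendrocyte markers were higher in 2 of 3 pairs. The part of these cells in the Bdnf values was not tested. A gene on the opposite strand, Gm45346, overlaps 14.4% of the Bdnf exons, and the strand setting of the counting is not stated. It was counted 4, 0 and 0 times with DMSO and 0, 4 and 1 times with GSK-126.

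Ntf3, which encodes NT-3, the ligand of TrkC, lies at chr6:126101412-126166910 on the minus strand. Its level was 21.2, 36.5 and 28.7 CPM in DMSO replicates 1, 2 and 3 (28.8 ± 7.64, SD, n = 3) and 21.2, 29.8 and 22.9 CPM with GSK-126 (24.6 ± 4.55, SD, n = 3). Replicate 2 was the highest of both groups and replicate 1 the lowest, and the groups overlapped. The log2 fold change was -0.21 (SE 0.152, 95% interval -0.54 to 0.12), with an adjusted p = 0.542 by edgeR. Without the block it was -0.23, with an adjusted p = 0.888. The interval allows a change of either sign, so that a moderate fall in this ligand could not be told from no change at this spread.

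The 2 ligands were set against each other within each library, where depth cancels. Per kilobase of exon, Bdnf stood at 0.0180, 0.0463 and 0.0318 of the Ntf3 level in DMSO replicates 1, 2 and 3 and at 0.0716, 0.0804 and 0.114 with GSK-126. These ratios did not overlap between the groups. The mean log2 difference over the 3 pairs was 1.47 ± 0.59 (SD), with p = 0.25 by a two-sided exact sign-flip permutation test, the smallest p that 3 pairs allow, and 0.625 after adjustment over 5 ratios of this kind. For Bdnf over Ntrk2, ligand over receptor, the difference was 1.44 ± 0.84 (SD, n = 3), with the same exact p, and the groups overlapped, DMSO replicate 2 (0.0442) being above GSK-126 replicate 1 (0.0330). Of the 5 ratios, Bdnf over Ntf3 was the only one whose groups did not overlap. The share over ratios of other genes was not computed, and among single genes 10.9% had groups that did not overlap.

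Ntrk2, the gene of TrkB, lies at chr13:58806569-59133970 on the plus strand, with 10 annotated transcripts of which 7 are coding. It was the most abundant of the 6 in CPM, at 634.7, 429.9 and 422 in DMSO replicates 1, 2 and 3 (495.5 ± 120.6, SD, n = 3) and 516.8, 425 and 356.6 with GSK-126 (432.8 ± 80.4, SD, n = 3). Replicate 1 was the highest of both groups. The level was lower with GSK-126 in 3 of 3 pairs, by log2 ratios of -0.30, -0.02 and -0.24, although the groups overlapped. The log2 fold change was -0.19 (SE 0.103, 95% interval -0.41 to 0.04), with an adjusted p = 0.407 by edgeR. Without the block it was -0.20, with an adjusted p = 0.894.

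The astrocyte markers were also highest in replicate 1 of both groups. Their summed level was 7309, 2420 and 4417 CPM in DMSO replicates 1, 2 and 3 and 7587, 2529 and 3913 CPM with GSK-126. In both groups the astrocyte markers were higher in replicate 3 than in replicate 2. Ntrk2 was nearly equal in these replicates with DMSO (429.9 CPM in replicate 2 and 422 in replicate 3). With GSK-126 it was lower in replicate 3 (425 and 356.6 CPM). The part of astrocytes in the Ntrk2 level was not tested.

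Ntrk3, the gene of TrkC, lies at chr7:78175959-78738012 on the minus strand, with 20 annotated transcripts of which 6 are coding. Its level was 214.1, 229.5 and 173.1 CPM with DMSO (205.6 ± 29.2, SD, n = 3) and 165.7, 237.7 and 182.3 CPM with GSK-126 (195.3 ± 37.7, SD, n = 3). It was lower with GSK-126 in replicate 1 and slightly higher in the other two, and the groups overlapped over most of their range. The log2 fold change was -0.08 (SE 0.117, 95% interval -0.34 to 0.18), with an adjusted p = 0.796 by edgeR. Without the block it was -0.07, with an adjusted p = 0.958. The direction rested on replicate 1, without which the estimate was 0.06.

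The ratio of the 2 Trk receptors, Ntrk2 over Ntrk3 per kilobase, was 4.64, 2.93 and 3.81 in DMSO replicates 1, 2 and 3 and 4.88, 2.80 and 3.06 with GSK-126. The mean log2 difference was -0.10 ± 0.20 (SD, n = 3), with an exact two-sided sign-flip p = 0.75, so that the balance of the pair differed by less than its spread between pairs.

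Ngfr, the gene of the p75 receptor, lies at chr11:95568818-95587735 on the minus strand and has 1 annotated transcript. It was counted 33, 44 and 39 times in DMSO replicates 1, 2 and 3 and 47, 74 and 25 times with GSK-126. In CPM this was 3.81, 5.50 and 4.61 (4.64 ± 0.847, SD, n = 3) and 3.91, 8.92 and 2.85 (5.23 ± 3.24, SD, n = 3). GSK-126 replicates 2 and 3 were the highest and the lowest of the 6 libraries, so that the pairs disagreed in sign, with log2 ratios of 0.04, 0.68 and -0.65. The log2 fold change was 0.05 (SE 0.345, 95% interval -0.70 to 0.81), with an adjusted p = 0.963 by edgeR, and 0.16 without the block (adjusted p = 0.966). At this spread neither a moderate rise nor a moderate fall could be told from no change.

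Sort1, which encodes sortilin, a sorting receptor that also carries BDNF precursor inside cells, lies at chr3:108284082-108361511 on the plus strand. Its level was 169, 159.6 and 166.8 CPM with DMSO (165.2 ± 4.90, SD, n = 3) and 193.2, 165.4 and 171.1 CPM with GSK-126 (176.6 ± 14.7, SD, n = 3). It was the steadiest of the 6 with DMSO. It was higher with GSK-126 in 3 of 3 pairs, but by log2 ratios of only 0.19, 0.05 and 0.04. The log2 fold change was 0.09 (SE 0.103, 95% interval -0.13 to 0.32), with an adjusted p = 0.719 by edgeR, and 0.10 without the block (adjusted p = 0.913). Gm12523, on the opposite strand, overlaps 4.47% of the Sort1 exons and was counted 55, 108 and 81 times with DMSO and 154, 58 and 96 times with GSK-126. The ratios of Ntrk2 and of Sort1 to Ngfr changed by -0.20 ± 0.56 and 0.07 ± 0.66 on the log2 scale (SD, n = 3), each with an exact sign-flip p = 0.75.

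**Figure D2:**
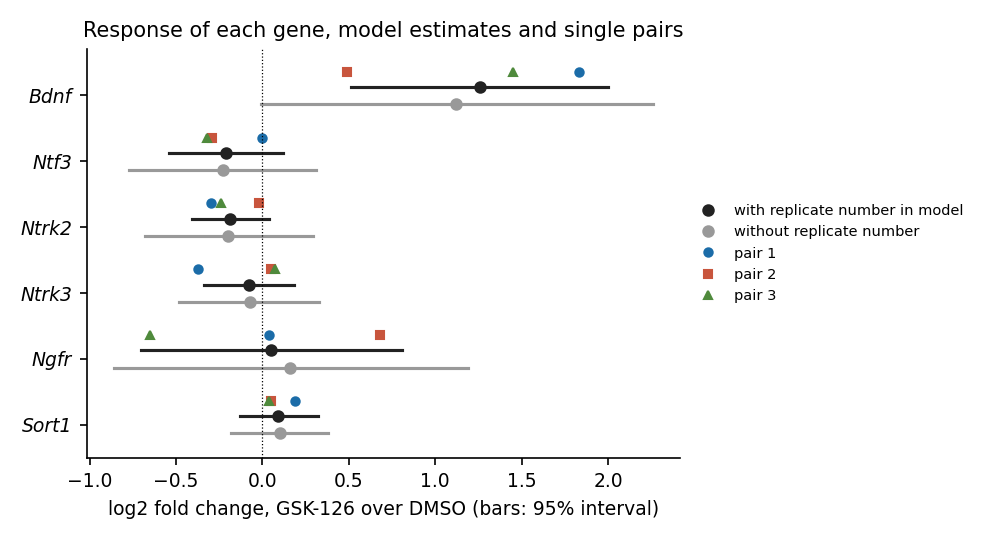
Log2 fold change of each gene, GSK-126 over DMSO (horizontal axis), from the model with the replicate number (black) and without it (grey), with bars for 95% intervals and coloured marks for the 3 single pairs. Only the black bar of Bdnf, from 0.51 to 2.00, lies clear of 0, and its grey bar reaches -0.01.

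Levels were compared between genes per kilobase of merged exon. With DMSO, Ntrk2 stood at 25.7 ± 6.25 CPM per kb, Sort1 at 21.8 ± 0.647 and Ntf3 at 16.8 ± 4.46 (SD, n = 3). Ntrk3 followed at 6.81 ± 0.967, Ngfr at 1.35 ± 0.246 and Bdnf at 0.580 ± 0.384 CPM per kb (SD, n = 3). Among all genes tested, these levels lay at percentiles 87.1, 84.2 and 78.5 for Ntrk2, Sort1 and Ntf3, at 52 for Ntrk3, at 15.1 for Ngfr and at 5.4 for Bdnf. NT-3 transcript was thus far more abundant than BDNF transcript in these cultures, and the TrkB gene more than the TrkC gene.

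Over the 6 libraries, neighbours in this order overlapped for Ntrk2 (18.5 to 32.9 CPM per kb) and Sort1 (21.1 to 25.5), for Sort1 and Ntf3 (12.3 to 21.3), and for Ngfr (0.826 to 2.59) and Bdnf (0.223 to 1.52). The ranges of Ntf3 and Ntrk3 (5.49 to 7.88 CPM per kb), and those of Ntrk3 and Ngfr, were apart. With the longest transcript as the length in place of merged exons, Ntrk2 stood at 56.7 and Ntrk3 at 10.4 CPM per kb with DMSO. The order of the 6 genes was the same. By that length Ntrk2 (40.78 to 72.58 CPM per kb over the 6 libraries) and Sort1 (23.35 to 28.26) were apart, so that their overlap depended on the length used.

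**Figure D3:**
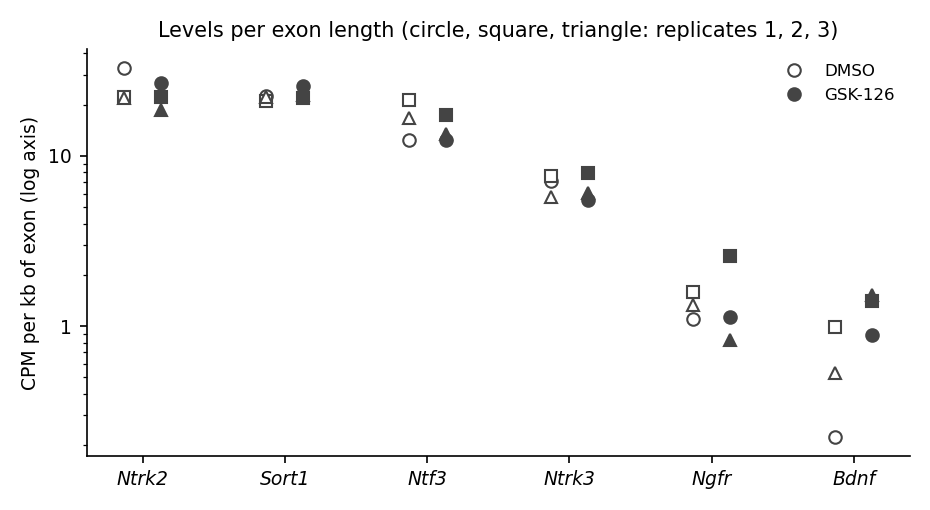
Level per kilobase of merged exon (log axis) in each library, with open marks for DMSO, filled marks for GSK-126 and shapes for replicate numbers. Ntrk2, Sort1 and Ntf3 form the upper part, between 12.3 and 32.9 CPM per kb, and Bdnf spreads widest, from 0.223 to 1.52.

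The genes with the most similar pattern were sought for each of the 6, as a description, by Pearson's r of log2 CPM over the 6 libraries among 11419 genes of at least 10 CPM. With so many candidates and so few libraries, a high r can arise for any gene. The DMSO and GSK-126 libraries were correlated together, so that a direction shared with the gene of interest comes with the choice and is no separate result. Bdnf was closest to Gm43808 (r = 0.994), Cyb5r1 (0.990) and Adam19 (0.987), a membrane protease of the ADAM family. Each of these was higher with GSK-126 in 3 of 3 pairs and none was called, Adam19 having a log2 fold change of 0.38 and an adjusted p = 0.0922 by edgeR. Ntf3 was closest to Inpp4a, Gtpbp1 and Taf5 (each 0.992). Ntrk2 was closest to Gm26775 (0.997), Nek1 (0.995) and Gtf2h4 (0.991), and Ntrk3 to Zfp236 (0.991), Ube3a (0.989) and Cnot2 (0.987). Ngfr was closest to Jrkl (0.991), Gm43376 (0.987) and Gm26533 (0.986). Sort1 was closest to Slc5a6 (0.993), Gas1 (0.987) and P3h3 (0.984), which were higher with GSK-126 in 3 of 3 pairs and not called.

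Around these 6 genes, 7 lists held 116 further genes that process neurotrophins, pass on their signal or regulate Bdnf, and 109 of them were tested. Of these, 3 were called higher and 3 lower, or 5.50% beside 3.65% of all genes, and their median log2 fold change was 0.01. Without the block 0 were called. The calls were spread over 4 of the 7 lists. At an unadjusted p under 0.05 by edgeR with the block there were 21 of the 109, beside 2735 of all 16343 genes tested.

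Among other ligands and the proteases that cut precursors, 9 of 12 genes were tested, 1 was called higher and 1 lower, and the median was 0.23. By edgeR 3 of the 9 had an unadjusted p under 0.05, and DESeq2 also called 1 higher and 1 lower. Pcsk2, a prohormone convertase of the regulated secretory pathway, was counted 736, 816 and 711 times with DMSO and 518, 514 and 366 times with GSK-126. Its level fell from 90.3 ± 10.2 to 48.9 ± 11.3 CPM (SD, n = 3), equal to -0.90 on the log2 scale (SE 0.118), with an adjusted p = 0.00344 by edgeR, and the groups did not overlap. Opposite-strand genes overlap 4.54% of its exons. Mmp3, a secreted matrix metalloprotease, was counted 192, 224 and 172 times with DMSO and 449, 414 and 275 times with GSK-126. It rose from 23.5 ± 4.01 to 39.5 ± 9.46 CPM (SD, n = 3), by 0.74 on the log2 scale (SE 0.141), with an adjusted p = 0.0167 by edgeR, again without overlap. Without the block the adjusted p-values were 0.465 for Pcsk2 and 0.806 for Mmp3. Ntf5, another TrkB ligand, was counted 0 to 10 times per library and was not tested, nor were Pcsk1 and Plg.

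Of 13 further receptors and co-receptors, 11 were tested and 0 were called, with a median log2 fold change of 0.04. At an unadjusted p under 0.05 edgeR gave 1 of them, and DESeq2 called 0. The lowest p-values were those of Lingo1, a co-receptor of p75 (-0.25, adjusted p = 0.231 by edgeR), and of Sorl1, a relative of sortilin (-0.23, adjusted p = 0.369). Rtn4r was counted 0 times in every library and was not tested.

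Of 21 genes listed as Trk adaptors, with exchange factors and PI3 kinase subunits among them, all were tested and 0 were called. Their median was -0.04. By edgeR 2 had an unadjusted p under 0.05, and DESeq2 called 0. These 2 were Shc1, an adaptor towards Ras (0.28, adjusted p = 0.226 by edgeR), and Gab1, a docking protein for PI3 kinase (-0.26, adjusted p = 0.230). In the MAP kinase and Akt arm, 1 of 21 was called. Rps6ka1, a ribosomal S6 kinase, fell from 170.9 ± 43.8 to 100.9 ± 25.6 CPM (SD, n = 3), by 0.76 on the log2 scale (SE 0.103, adjusted p = 0.00405 by edgeR and 0.806 without the block). An opposite-strand gene overlaps 5.80% of its exons.

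Of 12 genes that act with or below p75, all were tested and 0 were called, with a median of -0.02. By edgeR 2 had an unadjusted p under 0.05, and DESeq2 called 0. Both encode JNK kinases, Mapk10 (-0.35, adjusted p = 0.105 by edgeR) and Mapk9 (-0.31, adjusted p = 0.223).

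Of 20 genes known to respond to Trk signalling, 18 were tested, 1 was called higher and 1 lower, and the median was 0.03. Egr4, an early growth response transcription factor, was counted 83, 241 and 57 times in DMSO replicates 1, 2 and 3 and 12, 14 and 5 times with GSK-126. The groups were far apart, with a log2 fold change of -3.69 (SE 0.315, adjusted p = 0.00034 by edgeR and 0.465 without the block). Fos, an immediate early gene, moved the other way, from 23.6 ± 8.71 to 44.6 ± 16.1 CPM (SD, n = 3), by 0.92 on the log2 scale (SE 0.142, adjusted p = 0.00707 by edgeR and 0.814 without the block). It was counted 120, 244 and 225 times with DMSO and 344, 505 and 388 times with GSK-126, and its groups overlapped in CPM. By edgeR the list held 1 call in each direction, and 5 of its 18 tested genes had an unadjusted p under 0.05. DESeq2 with the same terms called 1 higher and 2 lower, the additional gene being Dusp5, a MAP kinase phosphatase (-0.44, adjusted p = 0.0356 by DESeq2 and 0.0521 by edgeR), named after its values were seen. Fosb and Egr2 were not tested.

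Of 17 regulators that act on Bdnf promoters, all were tested, 1 was called higher and 0 lower, and the median was -0.14. An unadjusted p under 0.05 was found for 7 of the 17 by edgeR, beside 2735 of all 16343 genes tested. DESeq2 also called 1 higher and 0 lower. Bhlhe40, a basic helix-loop-helix repressor that has been linked to a Bdnf promoter, was counted 342, 231 and 310 times with DMSO and 947, 421 and 618 times with GSK-126. It rose from 35.0 ± 5.47 to 66.7 ± 14.4 CPM (SD, n = 3), by 0.92 on the log2 scale (SE 0.121, adjusted p = 0.00344 by edgeR and 0.471 without the block), with an opposite-strand gene over 2.51% of its exons. Mef2d, an activity-regulated transcription factor, had a log2 fold change of -0.36 (adjusted p = 0.124). Npas4, an activity-induced factor that was named after its values were seen, was counted 4, 66 and 7 times in DMSO replicates 1, 2 and 3 and 11, 41 and 22 times with GSK-126. It was highest in replicate 2 of both groups, whereas Bdnf was highest in replicate 2 with DMSO and in replicate 3 with GSK-126.

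**Figure D4:**
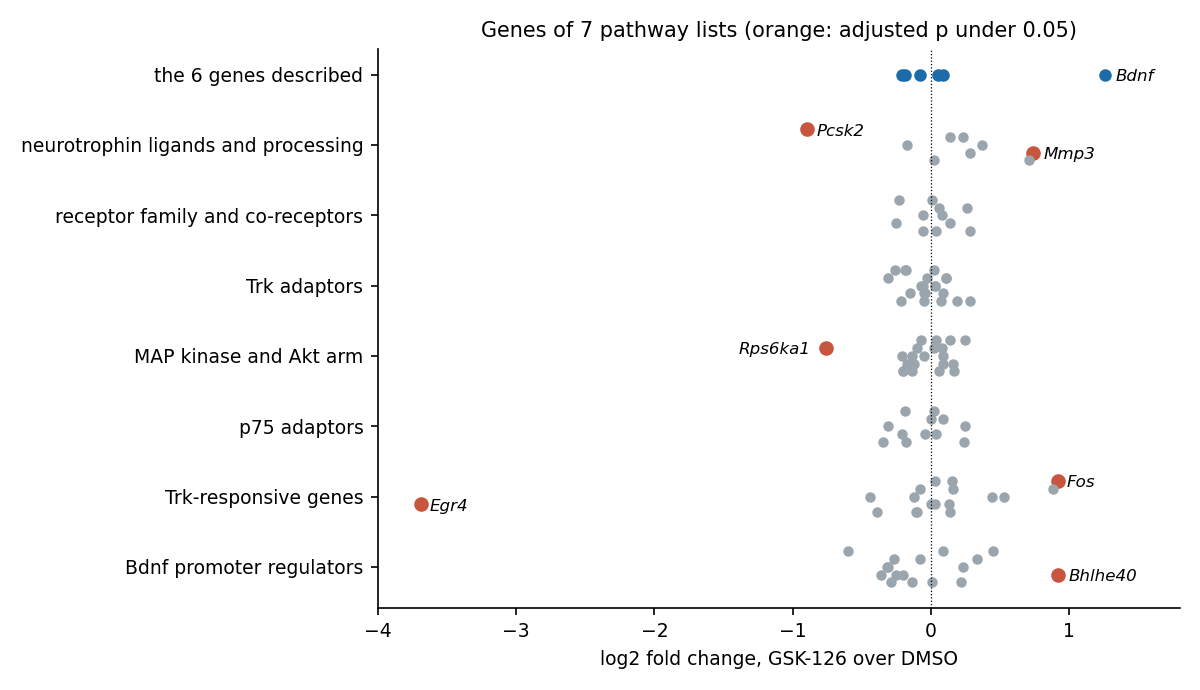
Log2 fold change, GSK-126 over DMSO (horizontal axis), of the 109 tested genes of 7 pathway lists and, in the top row, of the 6 genes described. Orange points passed an adjusted p of 0.05 in the model with the replicate number, and Egr4 lies far to the left at -3.69 while most points lie near 0.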

How the data were processed

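Reads of poly(A) RNA were sequenced in pairs. The authors used Trimmomatic 0.38 for trimming, STAR 2.7.2b for alignment to the GRCm38 genome and HTSeq for counting over exons, and they deposited 1 table of raw counts per gene symbol for each library. The strand setting is not given in the sources used here. The 5 summary rows that name no gene (58.4% to 60.9% of fragments, mostly reads over no exon) were left out. Coordinates and exon lengths came from the GENCODE annotation of GRCm38.

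Genes were filtered with filterByExpr by group, scaled with TMM factors (0.994 to 1.01) and tested in edgeR 4.0.16 by quasi-likelihood, with treatment and replicate number as terms, Benjamini-Hochberg adjustment over all 16343 genes and a threshold of 0.05. Standard errors were the log2 fold change over the square root of F, and intervals used the model's degrees of freedom. Pair ratios used log2 CPM with a prior count of 2. A count of 3 was worth 0.250 to 0.375 CPM. On simulated counts for this comparison over 16181 genes, the fit with the block recovered 98.0% of 98 genes changed by 1.5 on the log2 scale. It recovered 49.5% of 99 changed by 0.7, with 3 false calls. The fit without the block recovered 86.7% and 1.01% of these, whereas on the real counts it called 0 of 16343 genes. The simulation gave every gene the same dispersion and a replicate effect of a set size. It therefore checks that the fit runs correctly and does not give the power for genes of low count such as Bdnf and Ngfr.

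The replicate numbers were taken to pair the libraries. Deviations from the group means correlated by 0.35, 0.50 and 0.52 within a number and by -0.41 to -0.01 across numbers, and the methods define a replicate as pooled litters. The deviations of a gene sum to 0 over the 3 libraries of a group. Positive values within a number therefore tend to force negative ones across numbers, which add no separate support for the pairing. The labels give replicate numbers alone, and p-values measure the spread between these cultures of pooled litters. Alternatives were no block, no filter, DESeq2 1.42.0 and its size factors, limma 3.58.1 and leaving out libraries. The 6 genes and all lists were chosen with earlier results of these data known. From each pathway list, the genes named were those called, or otherwise those with the lowest p until 2 were named, and for each of the 6 genes its 3 nearest patterns. Values of some listed genes are not reported here.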

Additional observations from a re-analysis of the deposited data

How the results depend on the processing

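Calls over all genes depended on the block. With it, 365 genes were called higher and 232 lower, and with no replicate block 0 and 0, also when any 1 library was left out (0 to 0). DESeq2 with no block, added after the data had been seen, called 46 and 13. With no filter on low counts, 708 and 428 were called, and Bdnf passed (log2 fold change 1.26, adjusted p = 0.00159), the only alternative in which any of the 6 genes did. The cause was not tested. Leaving out 1 replicate number in the blocked fit gave 125 to 396 genes higher and 53 to 308 lower, the lowest without replicate 2 and then without replicate 3 (211 and 148).

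The log2 fold change of Bdnf ran from 0.74 to 1.75 over all alternatives, with adjusted p = 0.104 by limma, 0.0759 with DESeq2 size factors and 0.709 by DESeq2 with no block. Signs changed in 3 of the 6 genes. Ntrk2 was 0.03 without DMSO replicate 1 and no block (range -0.34 to 0.03). Ntrk3 was 0.06 without replicate 1 in the blocked fit (range -0.16 to 0.06), and with no block it was 0.02 when DMSO replicate 2 was left out and 0.03 when GSK-126 replicate 1 was (range -0.24 to 0.03). Ngfr was -0.30 without replicate 2 in the blocked fit (range -0.30 to 0.38) and -0.45 without GSK-126 replicate 2 and no block (range -0.45 to 0.46). Ranges for the ratios over replicates left out were -0.19 to 0.00 for Ntrk2 over Ntrk3, -0.51 to 0.04 for Ntrk2 over Ngfr and -0.23 to 0.42 for Sort1 over Ngfr. Over the 7 pathway lists, 0 genes were called higher and 0 lower with no block, and 1 was called higher without replicate 2. By longest transcript the levels with DMSO were 56.7 (Ntrk2), 10.4 (Ntrk3) and 24.2 (Sort1) CPM per kb. Bdnf and Ngfr had 12 to 83 counts per library, and how far depth limited their estimates was not tested.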
